A study of Homo sapiens with 24 samples.

Results

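The genes described here are 32 genes of protein folding in the endoplasmic reticulum (ER), chosen by name from the 58051 genes of the count tables and followed in 4 human cancer cell lines treated with Ocoxin. They comprise 16 chaperones and folding enzymes, 11 genes of ER-associated degradation (ERAD) together with the translocon subunit SEC61B, and 5 sensors and transcription factors of the unfolded protein response. All of them matched a gene in the tables, and all passed the filter on low counts in every cell line. The cell lines were the colorectal adenocarcinoma (COAD) line SW620, the pancreatic adenocarcinoma (PAAD) line BxPC-3, the prostatic adenocarcinoma (PRAD) line LNCaP and the triple-negative breast cancer (TNBC) line HCC-70, so that each cancer was represented by 1 established line. Ocoxin, a nutritional supplement that contains plant extracts, vitamins, amino acids and minerals, was applied for 48 h in medium with little serum, at a dilution of 700-fold in COAD and TNBC, 500-fold in PAAD and 50-fold in PRAD. Polyadenylated RNA of the cells that were still attached was sequenced, with 3 control and 3 Ocoxin libraries per cell line and 24 libraries in all, and nothing in the labels says what the control cells received or whether the 3 libraries of a group came from separate cultures.

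Secreted and membrane proteins enter the ER through the translocon and fold there with the help of chaperones of the HSP70 and HSP90 families, of the lectin chaperones that bind their sugars, and of the protein disulfide isomerases that join their cysteines. Proteins that fail to fold are drawn back into the cytosol and degraded, which is ERAD. When unfolded proteins build up, the sensors IRE1 (ERN1), ATF6 and PERK (EIF2AK3) start the unfolded protein response. Cleaved ATF6 and spliced XBP1 raise the transcription of chaperones and ERAD genes, and PERK slows translation and leads to ATF4 and its targets. Splicing of XBP1 and cleavage of ATF6 are not visible in counts per gene.

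Total counts ranged from 25160757 to 39009959 per library in COAD, PAAD and TNBC and from 9063968 to 9520969 in PRAD. The PRAD libraries were counted in another run, and no gene there exceeded 0.995 counts per exonic base, against 39.1 to 49 in the other cell lines. The highest member of the list in PRAD, HSPA5, reached 0.567 counts per base. PRAD levels of abundant genes are therefore not comparable with those of the other lines and their changes may be understated. Markers bore out the labels in part. KLK3 was high in PRAD, at 81.2 to 88.4 CPM (counts scaled to the library total) per kilobase. SMAD4 had 0 counts in PAAD, where this line carries a deletion. PGR had 0 counts in TNBC, but also in COAD and PAAD. The receptors ESR1 and ERBB2 stood at 0.401 to 0.605 and 23.2 to 28 CPM per kilobase in TNBC. ESR1 was at most 0.0755 in the other lines. ERBB2 was 11.7 to 14.6 in COAD, 11.2 to 12.8 in PAAD and 22.6 to 24.7 in PRAD. In COAD, VIL1 stood at 68 to 75.5 CPM per kilobase, but the colon markers CDX1 and LGALS4 were close to 0, at most 0.0575 and 0.29. The colon markers CDX2 and CDH17 were low but highest in COAD, at 3.41 to 5.06 and 2.97 to 4.1. In PAAD, the basal keratin KRT5 was above its level in TNBC, at 572 to 768 against 333 to 386 CPM per kilobase. KRT17 was too, at 667 to 958 against 58.4 to 110, while KRT14 was lower, at 6.31 to 11 against 31.8 to 45.9. Of the pancreatic markers, KRT7 and S100P were highest in PAAD, and KRT19 overlapped between PAAD and TNBC. MUC1 was lower in PAAD than in TNBC, at 16.3 to 19.8 against 59.1 to 81.7.

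The promoters of 6 members are shown because the same short elements, which are known as binding sites of the unfolded protein response, recur in them while their genes changed unequally with Ocoxin. The sequences are those of RefSeq (GRCh38.p14), written in the direction of the gene, 300 bases each across the transcription start site, and matches to the elements are in capitals. HSPA5 lies on the minus strand (chr9:125241294-125241593), HSP90B1 on the plus strand (chr12:103930160-103930459), CALR on the plus strand (chr19:12938359-12938658), HYOU1 on the minus strand (chr11:119057156-119057455), HERPUD1 on the plus strand (chr16:56931892-56932191) and XBP1 on the minus strand (chr22:28800520-28800819).
HSPA5: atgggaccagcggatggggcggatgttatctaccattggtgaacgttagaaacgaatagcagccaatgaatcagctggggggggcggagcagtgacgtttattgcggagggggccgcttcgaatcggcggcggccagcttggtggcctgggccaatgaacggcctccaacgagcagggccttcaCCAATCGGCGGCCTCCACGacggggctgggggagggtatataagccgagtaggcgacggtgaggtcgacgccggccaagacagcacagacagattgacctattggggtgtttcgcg
HSP90B1: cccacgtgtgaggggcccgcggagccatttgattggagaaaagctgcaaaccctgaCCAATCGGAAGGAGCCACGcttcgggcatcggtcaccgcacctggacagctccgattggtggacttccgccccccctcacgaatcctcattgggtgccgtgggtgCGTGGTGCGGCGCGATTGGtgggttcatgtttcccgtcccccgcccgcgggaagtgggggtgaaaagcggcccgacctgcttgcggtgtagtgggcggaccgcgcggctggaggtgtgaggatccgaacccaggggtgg
CALR: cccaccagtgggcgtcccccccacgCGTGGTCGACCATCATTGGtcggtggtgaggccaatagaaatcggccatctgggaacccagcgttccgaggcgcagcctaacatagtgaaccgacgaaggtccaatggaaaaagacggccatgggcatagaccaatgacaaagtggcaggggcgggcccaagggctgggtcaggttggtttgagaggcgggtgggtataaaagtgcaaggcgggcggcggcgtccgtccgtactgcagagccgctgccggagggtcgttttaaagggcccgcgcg
HYOU1: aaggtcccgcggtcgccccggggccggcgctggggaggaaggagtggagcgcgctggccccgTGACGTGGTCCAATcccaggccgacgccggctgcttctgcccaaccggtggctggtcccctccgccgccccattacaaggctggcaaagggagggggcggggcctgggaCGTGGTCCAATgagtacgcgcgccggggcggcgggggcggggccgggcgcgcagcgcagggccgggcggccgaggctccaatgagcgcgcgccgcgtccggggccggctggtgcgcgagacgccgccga
HERPUD1: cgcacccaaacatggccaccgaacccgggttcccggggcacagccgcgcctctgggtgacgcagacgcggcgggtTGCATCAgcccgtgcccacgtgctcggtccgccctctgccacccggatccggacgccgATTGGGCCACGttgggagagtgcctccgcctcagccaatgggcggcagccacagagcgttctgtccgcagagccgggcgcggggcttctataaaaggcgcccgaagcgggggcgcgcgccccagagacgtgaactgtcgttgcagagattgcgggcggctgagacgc
XBP1: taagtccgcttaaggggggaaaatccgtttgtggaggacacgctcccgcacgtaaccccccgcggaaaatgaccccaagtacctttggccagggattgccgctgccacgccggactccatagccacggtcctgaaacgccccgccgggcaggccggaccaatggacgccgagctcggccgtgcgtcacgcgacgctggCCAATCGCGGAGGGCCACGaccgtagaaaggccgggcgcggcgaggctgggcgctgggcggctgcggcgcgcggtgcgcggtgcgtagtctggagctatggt

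Promoter sequences were at hand for 29 of the 32 members, without PDIA3, DERL1 and DERL3. A gene was counted where any of its promoters held a match. The ER stress element (ERSE: CCAAT, 9 bases of any kind, CCACG, searched on both strands) was found in 7 of these members (24.1%). Of all 27305 genes with promoters of the same length it was found in 0.0916%. These were HSPA5, HSP90B1, CALR, CANX, CRELD2, PDIA6 and XBP1. The related ERSE-II (ATTGG, 1 base of any kind, CCACG) was found in HERPUD1, HYOU1 and SDF2L1, which is 10.3% of the members against 0.0696% of all genes. In HSPA5 the ERSE lay -66 to -48 bases from the start site, and HSP90B1 had a pair of them, from -194 to -176 and, on the other strand, from -89 to -71. HYOU1 had an ERSE-II at -79 to -69 and another at -185 to -175, the latter overlapping a match to the core of the XBP1 element (UPRE, TGACGTG). That core was found in 2 members (HYOU1 and VCP), or 6.9%, against 2.4% of all genes. The core of the ATF4 element (TGCATCA) was found in HERPUD1, or 3.45% of the members, about the share of all genes (3.24%). Such a match is a string of letters and does not show that a factor was bound.

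**Figure D1:**
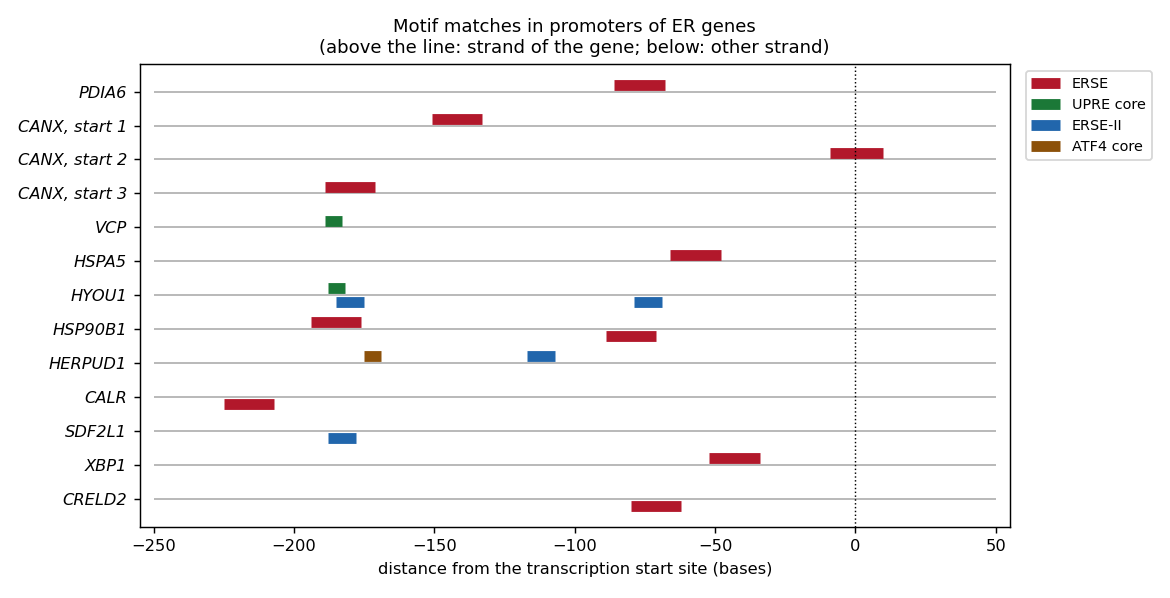
Positions of the ERSE, ERSE-II, UPRE core and ATF4 core matches in the promoters of the members that hold at least 1 of them, as distance in bases from the transcription start site. Each grey line is a 300-base window, with matches on the strand of the gene above the line and on the other strand below it. CANX appears with 3 start sites that share 1 ERSE, HSP90B1 has 2 ERSE and HYOU1 has 2 ERSE-II matches.

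Ocoxin changed the expression of the ER genes in PAAD, PRAD and TNBC but not in the same way. In TNBC, 12 members fell and 6 rose. Chaperones made up 10 of the falls, while 3 of the 5 sensors and the ERAD genes SEL1L and SYVN1 rose. In PAAD, 6 chaperones fell and 1 member rose. In PRAD, 3 members rose and none fell, and in COAD no member passed the threshold. A member was called where the edgeR quasi-likelihood test gave an adjusted p under 0.05 over all genes tested. Unless another setting is named, calls are those of this main fit of each line alone, without a replicate block. Of all genes tested, TNBC had 21% called (11.3% lower and 9.65% higher), PAAD 8.33% (3.62% lower and 4.72% higher), PRAD 2.98% (0.58% lower and 2.4% higher) and COAD 2.55% (1.09% lower and 1.47% higher). The share of members called lower, 18.8% in PAAD and 37.5% in TNBC, was above these values. In PRAD 9.38% of the members were called higher. Bulk RNA cannot tell fewer cells with a transcript apart from less of it per cell.

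The 32 members had a median log2 fold change of -0.10 in TNBC, -0.09 in PAAD and -0.05 in COAD and of 0.06 in PRAD, while that of all genes tested lay between -0.0053 and 0.00879. Without any test, the 3 Ocoxin and 3 control libraries did not overlap for 23 members in TNBC (16 lower and 7 higher), against 38.1% of all genes (19.8% and 18.3%). In PAAD this held for 12 members lower and 5 higher, against 13.9% and 13.6% of all genes (27.5% together). In PRAD 10 were higher and 1 lower, against 15.2% and 12.4% (27.6% together), and in COAD 6 were lower and 3 higher, against 10.4% and 10.2% (20.6% together). Changes were small, and the widest of them reached a log2 fold change of 0.71 (DNAJB9 in PRAD) and -0.53 (MANF in TNBC). In COAD, 5 members had an unadjusted p under 0.05, all of them lower with Ocoxin, about the share of all genes (16%, in either direction), and DESeq2 called HSPA5 and CALR lower there. Of the 32 members, 11 were called in no cell line, 14 in 1 and 7 in 2. No member was called in opposite directions in different lines, but with the replicate number as a block DNAJC3 was called lower in PAAD and TNBC and higher in PRAD. When a trend in gene length and GC content was removed as well, the same held for DNAJC3 and CRELD2. SYVN1 was then called lower in COAD and higher in PAAD and TNBC. In PAAD and PRAD libraries of the same replicate number deviated together more than others did, while in TNBC this held for replicate 3 alone. With the block 18 members were called in PAAD (5 higher and 13 lower) and 7 in PRAD (all higher). In TNBC, where the pairing is uncertain, 23 were called (6 higher and 17 lower). Of all genes, 23.1%, 8.5% and 33.9% were called with the block in PAAD, PRAD and TNBC. With DESeq2 size factors in edgeR, 2 members were called higher and 6 lower in PAAD, and with a trend in gene length and GC content removed 4 and 10 were. The counts also rested on single libraries. In PRAD no member was called when control replicate 1, 2 or 3 or Ocoxin replicate 2 was left out, and 1 without Ocoxin replicate 1. In PAAD 4 were called without control replicate 2 or Ocoxin replicate 1, and 11 without control replicate 3. In TNBC 15 to 22 were called with any 1 library left out.

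**Figure D2:**
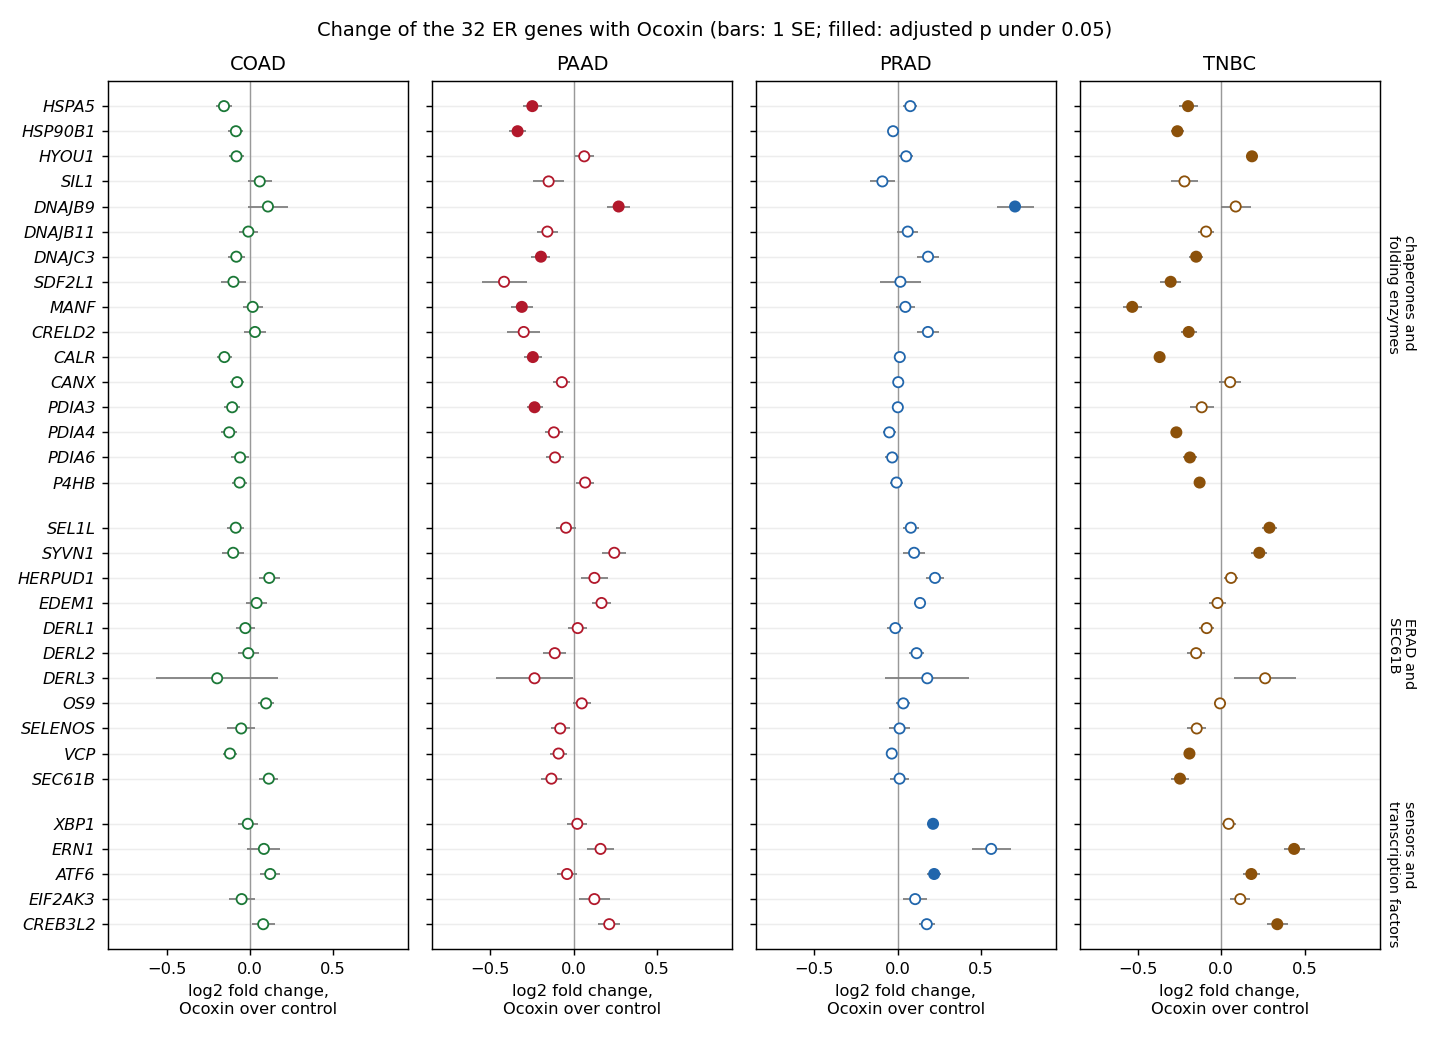
Log2 fold change of each of the 32 genes (vertical axis) with Ocoxin over control in the 4 cell lines, with bars of 1 SE from 3 and 3 libraries. Filled points have an adjusted p under 0.05 over all genes tested: 18 points in TNBC, 7 in PAAD, 3 in PRAD and none in COAD.

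Among the chaperones, summed CPM of the 16 genes was lower in every Ocoxin library than in any control library in COAD, PAAD and TNBC. In TNBC the control libraries stood at 4992, 4950.0 and 5248 and the Ocoxin libraries at 4413, 4398 and 4686, and the mean differed by -11.1%. In PAAD the sums were 7518, 7714 and 7396 in control and 6711, 6781 and 6570.0 with Ocoxin, a difference of -11.3%. In COAD they were 5475, 5408 and 5709 against 5058, 5157 and 5291, a difference of -6.55%. In PRAD the groups overlapped, with 2300.0 to 2337 in control and 2336 to 2451 with Ocoxin. These sums are dominated by a few very abundant genes and carry no test.

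**Figure D3:**
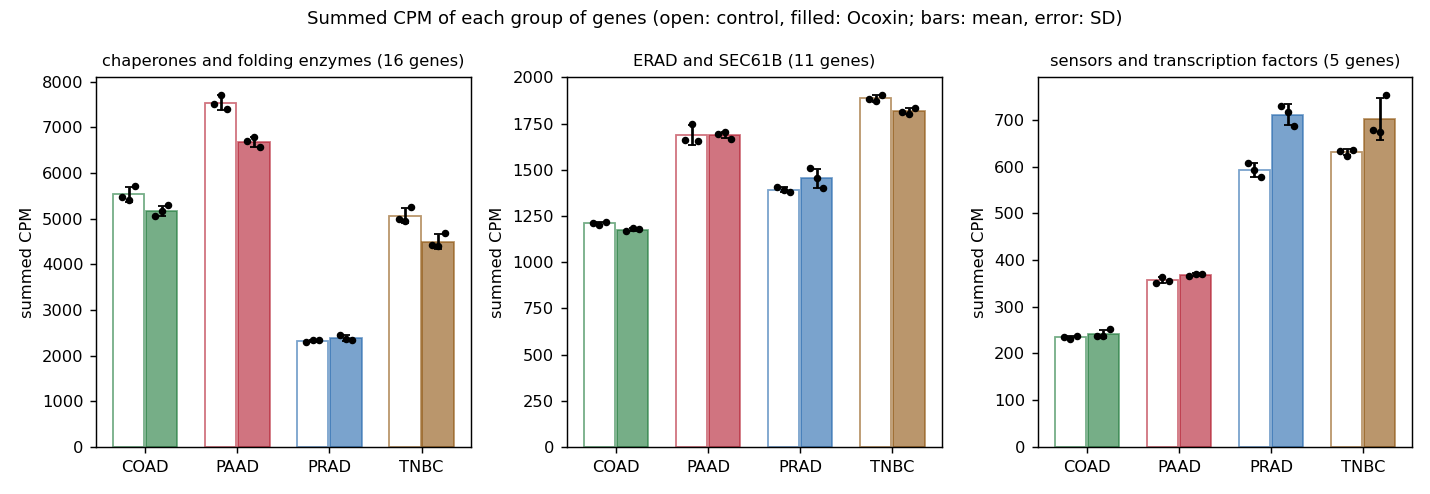
Summed CPM of the 16 chaperones and folding enzymes, the 11 ERAD genes with SEC61B and the 5 sensors and transcription factors in each library (points), with mean (bars) and SD (error bars) of 3 control (open) and 3 Ocoxin (filled) libraries per cell line. Chaperone sums were lower with Ocoxin in COAD, PAAD and TNBC, ERAD sums were lower in COAD and TNBC, and sensor sums were higher in PAAD, PRAD and TNBC, without overlap of the libraries. In COAD and TNBC the fall of VCP alone exceeded that of the ERAD sum. PRAD levels come from another counting run.

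HSPA5 (BiP, chr9:125234853-125241330, minus strand, hg38) is the HSP70 chaperone of the ER and holds the sensors inactive. In PAAD its CPM was 1234, 1333 and 1220.0 in control and 1098, 1088 and 1001 with Ocoxin. All Ocoxin libraries lay below all controls, with a log2 fold change of -0.25 ± 0.0555 (SE), adjusted p = 0.0114. In TNBC, HSPA5 went from 536, 520.4 and 579 to 453, 454 and 517, again without overlap, with a log2 fold change of -0.20 ± 0.0568 (SE), adjusted p = 0.0314. COAD libraries did not overlap either, at 644, 623 and 682 in control and 575, 584 and 589.8 with Ocoxin, but the difference did not pass the threshold (log2 fold change of -0.16 ± 0.0457 (SE), adjusted p = 0.0742). In PRAD the groups overlapped, at 212, 211 and 222 against 237, 223 and 219.7 (log2 fold change of 0.08 ± 0.041 (SE), adjusted p = 0.336). The PAAD call was lost without control replicate 2 (adjusted p = 0.0698), and the TNBC call without control replicate 1 or 3 or Ocoxin replicate 1 or 2 (adjusted p of 0.0761 to 0.109).

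HSP90B1 (GRP94, chr12:103930107-103953645, plus strand), the HSP90 chaperone of the ER, had the largest called fall of the list in PAAD in the main fit. With the replicate block SDF2L1, which the main fit did not call, fell further there (-0.41), and with the length and GC trend removed SDF2L1 (-0.48) and CRELD2 (-0.37) did, beside -0.34 and -0.29 for HSP90B1. CPM of HSP90B1 in PAAD was 1190.0, 1238 and 1254 in control and 976, 979.8 and 959 with Ocoxin, so that every treated library lay below every control. The change was a log2 fold change of -0.34 ± 0.0487 (SE), adjusted p = 0.000465. In TNBC it fell from 569, 557 and 602 to 464, 474 and 502, also without overlap (log2 fold change of -0.26 ± 0.0404 (SE), adjusted p = 0.000774). COAD libraries, at 1021, 1006 and 1033 in control and 932, 944 and 1011 with Ocoxin, overlapped (log2 fold change of -0.08 ± 0.0446 (SE), adjusted p = 0.372). PRAD libraries lay close together, at 268, 265 and 270.1 against 261, 262 and 266 (log2 fold change of -0.03 ± 0.0294 (SE), adjusted p = 0.664). Both calls held with each library left out in turn.

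MANF (chr3:51385047-51389397, plus strand), a secreted ER protein that binds HSPA5, had the largest fall of all members. In TNBC its CPM was 46.8, 47.4 and 50.2 in control and 34.05, 31.3 and 34.4 with Ocoxin, with no overlap and a log2 fold change of -0.53 ± 0.0569 (SE), adjusted p = 6.19e-05. In PAAD it went from 88.7, 85.3 and 82.5 to 72.4, 70.6 and 63.7 (log2 fold change of -0.31 ± 0.0646 (SE), adjusted p = 0.00739), again with all treated libraries lower. In COAD the groups overlapped, at 84.5, 80.3 and 91.6 against 81.05, 89.3 and 89.04 (log2 fold change of 0.02 ± 0.0595 (SE), adjusted p = 0.934). PRAD libraries overlapped as well, at 56.3, 58.9 and 57.8 against 62.8, 59.2 and 56.7 (log2 fold change of 0.05 ± 0.0564 (SE), adjusted p = 0.694). The calls in TNBC and PAAD held with each library left out in turn.

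CALR (calreticulin, chr19:12938578-12944489, plus strand), a lectin chaperone and calcium store of the ER, had the highest level per kilobase of the 32 members in COAD, PAAD and TNBC, at 270, 367 and 352 CPM per kilobase in control cells. In TNBC its CPM was 934, 937 and 996 in control and 742, 739 and 738 with Ocoxin, with the treated libraries close together and far below the controls (log2 fold change of -0.37 ± 0.0338 (SE), adjusted p = 2.09e-05). In PAAD it went from 1032, 1014 and 941 to 852, 859 and 808 without overlap (log2 fold change of -0.25 ± 0.0534 (SE), adjusted p = 0.00977), a call that was lost without control replicate 2 (adjusted p = 0.0522). In COAD, 719, 718 and 757 in control stood against 642, 661 and 669.8 with Ocoxin, without overlap but past no threshold (log2 fold change of -0.15 ± 0.0442 (SE), adjusted p = 0.0685). In PRAD the values were 154, 158 and 155 and 158, 155 and 159 (log2 fold change of 0.01 ± 0.0332 (SE), adjusted p = 0.858), and the groups overlapped.

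The HSP40 partners of HSPA5 did not move together. DNAJC3 (P58IPK, chr13:95677139-95794989, plus strand), which also restrains PERK, was lower in PAAD, with CPM of 150.0, 159 and 156 in control and 128, 137 and 141 with Ocoxin (log2 fold change of -0.20 ± 0.0571 (SE), adjusted p = 0.0439). In TNBC it went from 123, 117 and 117 to 106, 110.5 and 106 (log2 fold change of -0.15 ± 0.0417 (SE), adjusted p = 0.022). The libraries did not overlap in either line, but the calls were lost without control replicate 2, Ocoxin replicate 1 or Ocoxin replicate 2 in PAAD (adjusted p of 0.144 to 0.218) and without control replicate 1 or Ocoxin replicate 1 in TNBC (0.0983 and 0.0922). In PRAD the libraries lay in the other order, 127, 117 and 117 in control and 149, 131 and 128 with Ocoxin and without overlap, at a log2 fold change of 0.18 that passed the threshold with the replicate block (adjusted p = 0.167 without it and 0.032 with it, and 0.0212 to 0.415 over the alternatives). In COAD, values of 104, 105 and 104 stood just above 95.2, 97.1 and 104 (log2 fold change of -0.08 ± 0.0514 (SE), adjusted p = 0.468).

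DNAJB9 (ERdj4, chr7:108569568-108574850, plus strand), an HSP40 that serves ERAD and helps HSPA5 to silence IRE1, rose in PRAD and PAAD. In PRAD its CPM was 38.9, 34.7 and 39.9 in control and 71.7, 59.01 and 54.2 with Ocoxin, 63.1% higher, with a log2 fold change of 0.71 ± 0.111 (SE), adjusted p = 0.0257. In PAAD it went from 38.03, 36.7 and 38.6 to 46.7, 47.8 and 42.1 (log2 fold change of 0.27 ± 0.0701 (SE), adjusted p = 0.0263). The groups did not overlap in either line. In TNBC, 21.4, 23.4 and 25.6 in control and 24.8, 22.2 and 27.7 with Ocoxin overlapped (log2 fold change of 0.09 ± 0.0894 (SE), adjusted p = 0.543), as did 9.39, 8.09 and 9.14 and 8.24, 9.73 and 10.8 in COAD (log2 fold change of 0.11 ± 0.118 (SE), adjusted p = 0.719). The PRAD call was lost when any control replicate or Ocoxin replicate 2 was left out (adjusted p of 0.0583 to 0.0985), and the PAAD call without control replicate 1 or 2 or Ocoxin replicate 1 or 2 (0.0599 to 0.157).

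**Figure D4:**
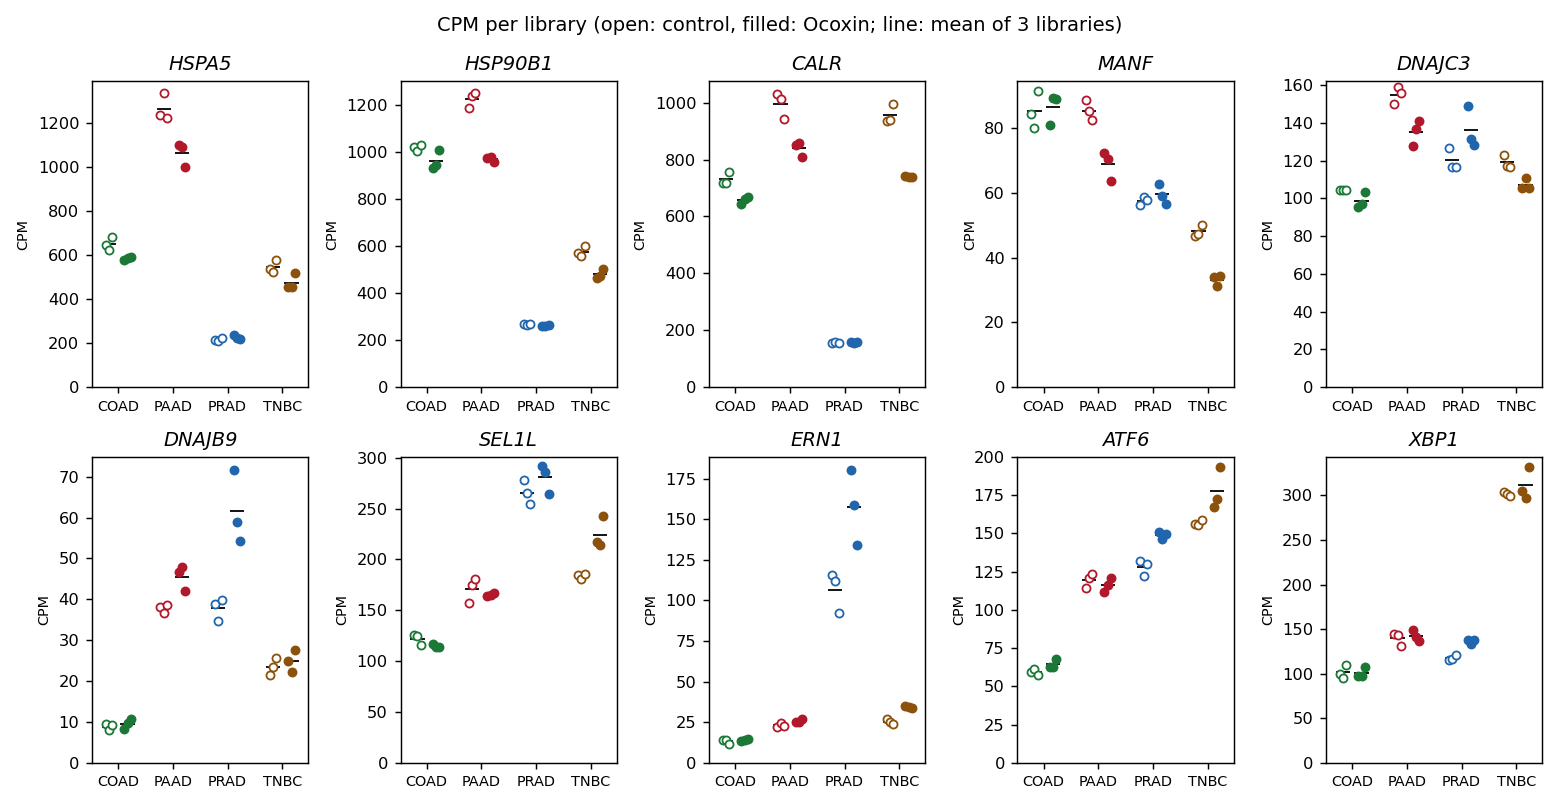
CPM of 10 of the genes in each library, with control libraries open, Ocoxin libraries filled and a line at the mean of 3. HSPA5, HSP90B1, CALR, MANF and DNAJC3 were lower in PAAD and TNBC, DNAJB9 was higher in PAAD and PRAD, SEL1L and ERN1 were higher in TNBC, and ATF6 was higher in PRAD and TNBC. Levels in PRAD come from another counting run and are not comparable with the rest.

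Of the other chaperones, HYOU1 (GRP170), a nucleotide exchange factor of HSPA5, rose in TNBC with a log2 fold change of 0.18 ± 0.0364 (SE), adjusted p = 0.00372, the only chaperone called higher there. Of the remaining chaperones, 5 fell in TNBC. These were SDF2L1, a component of HSP40 complexes (-0.30), CRELD2, a disulfide isomerase (-0.20), and the disulfide isomerases PDIA4 (-0.27), PDIA6 (-0.19) and P4HB (-0.13), with adjusted p of 0.000146 (PDIA4) to 0.0129 (CRELD2). With the replicate block SDF2L1, CRELD2, PDIA4 and PDIA6 were called lower in PAAD too (log2 fold changes of -0.41, -0.30, -0.12 and -0.11, adjusted p = 0.00192, 0.00105, 0.00523 and 0.0203). In TNBC, CRELD2 was no longer called without control replicate 2 (adjusted p = 0.0524), and PDIA6 without Ocoxin replicate 1 or 2 (0.0506 and 0.0608). PDIA3 (ERp57), the isomerase that works with the lectin chaperones, fell in PAAD with a log2 fold change of -0.24 ± 0.0481 (SE), adjusted p = 0.00672, a call that was lost without Ocoxin replicate 1 (adjusted p = 0.0507). In TNBC PDIA3 stood at -0.12 (adjusted p = 0.294), and it was called lower there only with the replicate block or without a filter on low counts (adjusted p from 8.24e-05 to 0.639 over the alternatives). CANX, SIL1 and DNAJB11 were called in no cell line by the main fit, with log2 fold changes from -0.22 (SIL1 in TNBC) to 0.06 (DNAJB11 in PRAD). With the block SIL1 was called lower in TNBC (adjusted p = 0.00968) and DNAJB11 in PAAD (0.0204). SIL1 was called in TNBC in 1 of the 6 fits with a library left out too (0.0399). Of the exonic bases of PDIA6, 25.2% are shared with ATP6V1C2 on the other strand, those of DNAJB11 are shared to 23.2% and those of PDIA3 to 18.9%, and the counting did not use the strand. The pseudogene PDIA3P1 held up to 27.3% as many counts as PDIA3.

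Of the 10 members with an ERSE or ERSE-II, 6 were called lower and 1 higher in TNBC, compared with 6 lower and 5 higher of the 19 members whose promoter had neither, and with 11.3% lower and 9.65% higher of all genes. In PAAD 3 of 10 and 2 of 19 were called lower, and 3.62% of all genes. The difference between members with and without a match was not tested. The median log2 fold change with and without a match was -0.19 and -0.09 in TNBC, -0.18 and -0.05 in PAAD, -0.08 and -0.01 in COAD, and 0.03 and 0.08 in PRAD. The range with a match went from -0.37 (CALR) to 0.18 (HYOU1) in TNBC. CALR, which fell most among them, and HYOU1, which rose, thus both carried such an element in the sequences above.

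In ERAD, the main fit made calls in TNBC alone, for 4 of the 11 genes, against 21% of all genes there. Summed CPM of the 11 genes was lower without overlap in COAD (-2.76%) and TNBC (-3.59%), while the groups overlapped in PAAD and PRAD. Mean CPM of VCP went from 783 to 685.9 in TNBC, where the sum went from 1886 to 1819. In COAD VCP went from 494 to 454.5 and the sum from 1210 to 1176. In both lines VCP alone thus fell by more than the sum, which does not show a fall of the other ERAD genes. SEL1L (chr14:81471549-81533861, minus strand) and SYVN1 (HRD1), the scaffold and the ubiquitin ligase of the main ERAD complex, rose together. CPM of SEL1L in TNBC was 184, 181 and 186 in control and 217, 214 and 242 with Ocoxin, with no overlap and a log2 fold change of 0.29 ± 0.0473 (SE), adjusted p = 0.00118. SYVN1 rose with a log2 fold change of 0.23 ± 0.0469 (SE), adjusted p = 0.00466. The ATPase VCP, which pulls substrates from the membrane, fell (log2 fold change of -0.19 ± 0.0331 (SE), adjusted p = 0.00168), as did SEC61B (log2 fold change of -0.25 ± 0.0554 (SE), adjusted p = 0.00749). These 4 calls held with each TNBC library left out in turn. In PAAD, SYVN1 stood at 0.24 (adjusted p = 0.0521), and with the replicate block SYVN1, HERPUD1 and EDEM1 were called higher and VCP and SEC61B lower (adjusted p of 0.000809 for EDEM1 to 0.0368 for VCP). DESeq2 also called SYVN1 (adjusted p = 0.0255) and EDEM1 (0.0429) higher there. With the length and GC trend removed, SYVN1 (0.0413) and EDEM1 (0.0119) were called higher and VCP (0.0363) lower. The derlins DERL1, DERL2 and DERL3, the lectin OS9 and SELENOS were called in no line by the main fit. With the block, and with the length and GC trend removed, DERL1, DERL2 and SELENOS were called lower in TNBC. DERL3 was the lowest member, at 0.219 to 0.675 CPM per kilobase in control cells, and its SE of up to 0.365 left changes of its size undetectable.

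HERPUD1 (chr16:56932048-56944863, plus strand), an ERAD adaptor that is a common marker of ER stress, was called in no cell line by the main fit. In PRAD it was called in 4 of 15 alternatives, 1 of them with a library left out (adjusted p = 0.0374). In PRAD its CPM was 100.1, 103 and 103 in control and 125, 122 and 110.5 with Ocoxin, without overlap (log2 fold change of 0.23 ± 0.0531 (SE), adjusted p = 0.0698, 0.0427 with the block and 0.0163 to 0.234 over the alternatives). In PAAD it was 120.5, 124 and 101 against 134, 130.2 and 112 (log2 fold change of 0.12 ± 0.0806 (SE), adjusted p = 0.391, 0.0202 with the block and 0.00562 to 0.822 over the alternatives), and the groups overlapped. COAD values of 63.5, 57.1 and 63.8 and 62.8, 65.95 and 71.1 overlapped as well (log2 fold change of 0.12 ± 0.0632 (SE), adjusted p = 0.39). TNBC values were 166, 170.5 and 162 and 172, 166 and 181 (log2 fold change of 0.06 ± 0.0418 (SE), adjusted p = 0.358).

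The sensors and transcription factors moved upwards where they were called. Mean summed CPM of the 5 genes went from 592.9 ± 15.1 to 711 ± 22.2 in PRAD (SD, n = 3 and 3), from 630.6 ± 6.43 to 702 ± 45.2 in TNBC and from 357 ± 6.94 to 369 ± 2.4 in PAAD, with no overlap of the libraries in these lines. In COAD the sums, 235 ± 2.88 and 241 ± 8.67, overlapped. Of the 5 genes, 2 were called higher in PRAD and 3 in TNBC, and none in COAD and PAAD.

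ERN1 (IRE1, chr17:64039142-64130819, minus strand), the kinase and endonuclease that splices XBP1, had the largest rise of the list in TNBC. Its CPM was 27.2, 25.2 and 23.7 in control and 35.1, 34.4 and 33.6 with Ocoxin, with no overlap and a log2 fold change of 0.44 ± 0.0636 (SE), adjusted p = 0.000528. In PRAD the libraries were further apart, 116, 112 and 92.3 in control and 180.1, 158 and 134 with Ocoxin, but varied more (log2 fold change of 0.56 ± 0.118 (SE), adjusted p = 0.0511). With the replicate block ERN1 passed the threshold in PRAD (adjusted p = 0.00225), and over the alternatives its adjusted p ranged from 1.46e-05 to 0.197. In PAAD, 22.2, 24.6 and 22.6 stood against 25.2, 25.2 and 27.2, without overlap (log2 fold change of 0.16 ± 0.0789 (SE), adjusted p = 0.24). In COAD the groups overlapped, at 14.3, 14.3 and 11.4 and 13.7, 14.3 and 14.4 (log2 fold change of 0.08 ± 0.0992 (SE), adjusted p = 0.745).

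XBP1 (chr22:28794555-28800597, minus strand), the transcription factor made active by ERN1, was called in PRAD only, and there not by DESeq2. Its CPM there was 115, 116 and 121 in control and 137, 134 and 138 with Ocoxin, without overlap (log2 fold change of 0.21 ± 0.0382 (SE), adjusted p = 0.0327). Values overlapped in TNBC, at 304, 302 and 299.8 and 305, 297 and 332 (log2 fold change of 0.04 ± 0.0419 (SE), adjusted p = 0.505), where the level was the highest of COAD, PAAD and TNBC. They overlapped in PAAD, at 145, 144 and 131 and 149, 141 and 136 (log2 fold change of 0.02 ± 0.0596 (SE), adjusted p = 0.873), and in COAD, at 99.95, 94.99 and 110.3 and 97.2, 97.4 and 108 (log2 fold change of -0.01 ± 0.0605 (SE), adjusted p = 0.95). The difference among the cell lines was not called for XBP1 (adjusted p = 0.358).

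ATF6 (chr1:161766294-161964070, plus strand), the sensor that is cleaved to a transcription factor, was higher in PRAD, with 132, 122 and 129.8 in control and 151, 146 and 149.8 with Ocoxin (log2 fold change of 0.22 ± 0.0405 (SE), adjusted p = 0.0357). In TNBC it went from 156, 156 and 159 to 168, 173 and 193, with Ocoxin replicate 3 above the rest (log2 fold change of 0.18 ± 0.0501 (SE), adjusted p = 0.0228). The groups did not overlap in these lines. COAD showed no overlap either, at 59.4, 61.2 and 57.1 and 62.8, 62.5 and 68.1, but no call (log2 fold change of 0.12 ± 0.0589 (SE), adjusted p = 0.32), and PAAD overlapped, at 114, 121 and 123 and 112, 117 and 121 (log2 fold change of -0.04 ± 0.0579 (SE), adjusted p = 0.734). In PRAD neither XBP1 nor ATF6 was called when any 1 of the 6 libraries was left out (adjusted p of 0.0666 to 0.122 and 0.056 to 0.129). DESeq2 called neither of them there, and XBP1 was not called with the length and GC trend removed. Of 15 alternatives in PRAD, XBP1 was called in 5 and ATF6 in 6. The TNBC call of ATF6 was lost without control replicate 1 or 2 (0.0807 and 0.087).

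EIF2AK3 (PERK, chr2:88556741-88627576, minus strand), the kinase that slows translation, was not called in any line. Its CPM was 37.2, 36.9 and 37.7 in control and 38.2, 39.3 and 43.5 with Ocoxin in TNBC, without overlap (log2 fold change of 0.11 ± 0.0588 (SE), adjusted p = 0.197). In PRAD it was 72.7, 60.3 and 65.02 and 73.4, 71.1 and 68.5 (log2 fold change of 0.11 ± 0.0733 (SE), adjusted p = 0.465), and in PAAD 16.5, 17.8 and 18.6 and 18.98, 17.6 and 21.1 (log2 fold change of 0.12 ± 0.0916 (SE), adjusted p = 0.462). COAD values were 23.97, 20.9 and 24.2 and 22.6, 21.4 and 22.7 (log2 fold change of -0.05 ± 0.0783 (SE), adjusted p = 0.822). In these 3 lines the groups overlapped. CREB3L2, a membrane-bound transcription factor related to ATF6, rose in TNBC (log2 fold change of 0.34 ± 0.0618 (SE), adjusted p = 0.00317). With the replicate block it was called higher in PAAD and PRAD too (adjusted p = 0.00107 and 0.0297, against 0.055 and 0.0906 without it).

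Whether the response differed between cell lines was tested with an interaction term in 1 fit of all 24 libraries. The genes of that fit include some that the filter dropped in single lines, while every member was tested in each line. Shares of all genes, here and within lines, were not matched to the members for abundance. The response of 12 of the 32 members differed among the 4 lines, against 10.9% of all 24631 genes tested. The clearest were MANF (adjusted p = 5.1e-05), CALR (0.000397), HSP90B1 (0.00106) and SEL1L (0.00355). COAD and TNBC received the same 700-fold dilution, and 7 members differed between them, against 6.78% of all genes. HYOU1, SEL1L and SYVN1 were higher in the response of TNBC, by a log2 difference of 0.25, 0.36 and 0.32. HSP90B1, CALR, SEC61B and MANF were lower, by -0.19, -0.23, -0.37 and -0.56. For HSPA5 the difference between these lines, -0.06, was not called (adjusted p = 0.783).

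Between TNBC and PAAD, 2 members differed, against 4.01% of all genes. SEL1L was higher in TNBC by 0.33 (adjusted p = 0.00732) and P4HB was lower by -0.21 (0.0327). The genes called lower in both lines were HSPA5, HSP90B1, DNAJC3, MANF and CALR, which are 5 of the 6 called lower in PAAD and 5 of the 12 in TNBC. PRAD and TNBC were compared because ER lists had medians of opposite sign there in earlier results of these data. The number and direction of differences between them are thus no independent support. Between PRAD and TNBC, 5 members differed, against 3.59% of all genes, all of them higher in the response of PRAD. These were MANF (0.56), CALR (0.37), DNAJB9 (0.60), DNAJC3 (0.32) and HSP90B1 (0.22). For ERN1 and ATF6, which rose in TNBC, the differences of 0.11 and 0.02 were not called (adjusted p = 0.811 and 1). The dilution and the cell line cannot be told apart in the comparisons that involve PAAD or PRAD, and PRAD was also counted in another run. Leaving out the libraries of 1 group and number in all lines moved these counts, and most of these settings lowered them. Without control replicate 2 they were 3 among the 4 lines, 3 between TNBC and COAD, 0 between TNBC and PAAD and 2 between PRAD and TNBC, and without Ocoxin replicate 2 they were 6, 3, 1 and 3. Without Ocoxin replicate 1 they were 5, 6, 1 and 2, and without control replicate 3 the count for TNBC and PAAD was 1. With the replicate number within each line as a block they were 19, 14, 8 and 11, against 23.3%, 15%, 10.4% and 8.87% of all genes. MANF, CALR and HSP90B1 kept the call among the 4 lines with each number left out, while HYOU1 lost it every time (adjusted p of 0.0725 to 0.216). Without PRAD, 6 members differed among the remaining lines, namely HSP90B1, HYOU1, MANF, SEL1L, SYVN1 and SEC61B.

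**Figure D5:**
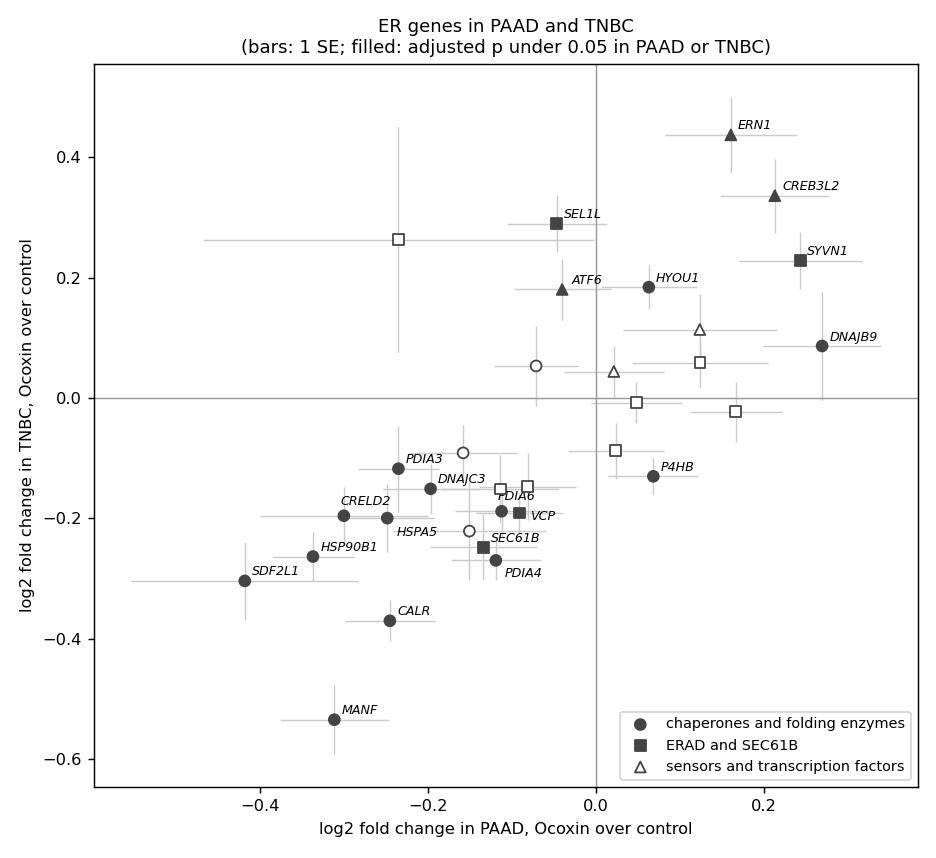
Log2 fold change of the 32 genes with Ocoxin in PAAD (horizontal axis) and TNBC (vertical axis), with bars of 1 SE. Circles are chaperones, squares ERAD genes with SEC61B and triangles sensors, and filled symbols were called in at least 1 of both lines. HSPA5, HSP90B1, DNAJC3, MANF and CALR lie to the lower left, while SEL1L and ATF6 rose in TNBC with log2 fold changes near 0 in PAAD.

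Further genes of the ER were grouped by function, and 3 per list and line are named at most. Their counts are to be read against the 9.65% of all genes called higher and 11.3% called lower in TNBC (21% together), 4.72% and 3.62% in PAAD and 2.4% and 0.58% in PRAD. Of 27 further folding factors, 2 were called higher and 6 lower in TNBC, 1 and 2 in PAAD, and 3 and 0 in PRAD. ERO1A, the oxidase that recharges the disulfide isomerases, fell in TNBC (-0.37) and PAAD (-0.27), and PRDX4, an ER peroxidase, fell in TNBC (-0.32). DNAJC10 (ERdj5), a disulfide reductase, rose in TNBC (0.26) and PRAD (0.31). Of 23 genes of the translocon, signal peptidase and signal recognition particle, 9 were called lower and 1 higher in TNBC and 2 lower in PAAD, with TRAM1 (-0.18) and SEC11A (-0.19) leading in TNBC, and SPCS3 (-0.22) and SRP9 (-0.21) in PAAD. Of 19 genes of N-glycosylation and glycan quality control, 1 was called higher and 3 lower in TNBC, and 2 higher in PRAD. EDEM3, a mannosidase that marks proteins for ERAD, rose in both (0.15 and 0.18), and the oligosaccharyltransferase subunits RPN1 (-0.18) and DAD1 (-0.19) fell in TNBC, where the 4 calls of this list were about the share of all genes. Of 21 further ERAD genes, 4 were called lower in TNBC, led by UBXN6 (-0.20), UFD1 (-0.20) and UBE2J2 (-0.21), and none elsewhere. These calls were near the 21% of all genes called there in either direction, of which 11.3% were lower. COAD had no call in these 4 lists. Their medians lay between -0.0843 and 0.0423 on the log2 scale.

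Of the 23 genes in a list of the PERK and ATF4 arm, which also holds the proteases and the nuclear factor Y subunits that act with ATF6, 6 were called higher and none lower in COAD, 9 and 2 in PAAD, 8 and 0 in PRAD, and 10 and 2 in TNBC, and the others were not called. Of all genes, 1.47% were called higher in COAD, 4.72% in PAAD, 9.65% in TNBC and 2.4% in PRAD. The list was drawn up with earlier results of these data known. It holds ADM2, CHAC1, SESN2 and TRIB3, which the study reported as altered in every cell line from the same libraries. Its counts and medians are therefore a description and no independent support. ASNS (asparagine synthetase), CHAC1 (a glutathione-degrading enzyme) and TRIB3 (a pseudokinase) rose in PAAD (1.20, 1.38 and 0.87). SESN2, DDIT4 and ADM2 rose in COAD (0.87, 0.85 and 0.89), where no ER chaperone was called. CHAC1 rose in PRAD (1.03), as did the cystine transporter SLC7A11 (0.75) and STC2 (0.26). SLC7A11, SESN2 and STC2 led in TNBC (0.70, 0.49 and 0.32). This list had a median log2 fold change of 0.13 in TNBC, where the chaperones had one of -0.19, and of 0.20 against -0.18 in PAAD. In COAD these medians were 0.12 and -0.08, and in PRAD 0.26 and 0.02. The difference between the lists was not tested.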

How the data were processed

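The libraries were stranded and made from polyadenylated RNA. The authors used fastp for trimming, STAR for alignment to hg38 and picard for the removal of duplicates, and featureCounts 2.0.3, per the file headers, for counting on exons. The deposited values are whole counts per gene of primary alignments, without normalization, in a table of PRAD and a table of COAD, PAAD and TNBC. The latter used the paired-end option, neither counted read pairs as 1 fragment, and neither used the strand. The letters C and O in the titles gave the group, because the labels give the dilution for controls as well. Intervals between libraries cover only the spread between these samples, which may be technical.

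Each cell line was tested alone in R 4.3.3 with edgeR 4.0.16 (filterByExpr, TMM scaling, robust quasi-likelihood F-test, two-sided), and p-values were adjusted by the Benjamini-Hochberg method over the 17070 to 17659 genes tested, with a threshold of 0.05. SE was the log2 fold change divided by the root of F. CPM values are TMM-scaled, and the biological coefficient of variation was 6.28% to 6.84%. Alternatives, compared in the closing section, were DESeq2 1.42.0, its size factors, no filter on low counts, a replicate block, removal of length and GC trends (a spline with 5 degrees of freedom) with and without the block, all 24 libraries in 1 fit, halved counts of paired libraries, a correction of PRAD counts for reads that share a start, a threshold of 0.01 and each library left out. Deviations of same-numbered libraries over genes of at least 5 CPM correlated at 0.26 to 0.556 in PAAD, 0.165 to 0.579 in PRAD and 0.261 to 0.601 in TNBC. Libraries of different numbers reached at most 0.176, 0.135 and 0.302 in these lines. In TNBC replicates 1 and 2 (0.261 and 0.287) lay below that, so pairing there is uncertain. In COAD same-numbered libraries correlated at 0.347, 0.0564 and 0.454, against up to 0.347 for different numbers. The main fits used no pairs in any line, and the replicate block is an alternative in each of them. Pairing in COAD is uncertain as well. Over all genes tested the lowest correlations of same-numbered libraries were 0.0235 in PAAD, 0.0912 in PRAD and 0.062 in TNBC. Coordinates are those of the tables, and gene symbols matched 56948 of 58051 identifiers. The motif search covered the RefSeq promoters of 27305 genes.

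The genes, the lists, the motifs and the comparison of PRAD with TNBC were chosen with earlier results of these data known. Per-library values are given for the members called in at least 2 lines, the called member with the largest rise and fall in each line, and HSPA5, HSP90B1, HERPUD1, XBP1, ATF6, ERN1 and EIF2AK3. Of each further list, up to 3 called genes per line with the smallest adjusted p are named. Values per library of SEL1L were added after they were seen. Statistical scripts were tested on simulated data.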

Additional observations from a re-analysis of the deposited data

Results flagged for a closer look

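For 12 of the 32 members the change with Ocoxin differed among the 4 cell lines by the interaction test of edgeR, against 10.9% of all genes tested. Among the chaperones these were MANF (adjusted p = 5.1e-05), CALR (0.000397), HSP90B1 (0.00106), DNAJC3 (0.00886), CRELD2 (0.0139), DNAJB9 (0.0156), HSPA5 (0.0311) and HYOU1 (0.0433). Of the ERAD genes and SEC61B, SEL1L (0.00355), SEC61B (0.0134) and SYVN1 (0.0422) differed, and of the sensors ERN1 did (0.044). MANF, CALR, HSP90B1, DNAJC3 and HSPA5 were lowest in the response of PAAD or TNBC, DNAJB9 and ERN1 were highest in PRAD, and SEL1L and HYOU1 were highest in TNBC. CRELD2 had log2 fold changes of -0.30 in PAAD and 0.18 in PRAD, SEC61B of 0.11 in COAD and -0.25 in TNBC, and SYVN1 of -0.10 in COAD and 0.24 in PAAD. MANF, CALR and HSP90B1 kept this call with each replicate number left out, and SEL1L lost it only without control replicate 2 (0.069). HSPA5 lost it without control replicate 1 or 2 or Ocoxin replicate 1 or 2 (0.119 to 0.166). DNAJB9 (0.0777 to 0.171) and ERN1 (0.224 to 0.299) lost it without control replicate 2 or Ocoxin replicate 1 or 2. HYOU1 lost it with each number left out, with DESeq2 size factors (0.0747), without a filter on low counts (0.0666) and with PRAD counts corrected for shared starts (0.0658). SYVN1 lost it with DESeq2 size factors (0.0662), with the PRAD correction (0.0629) and with each number left out other than control replicate 3. CRELD2 lost it without control replicate 1 or 2 or Ocoxin replicate 1 (0.086 to 0.111). DNAJC3 lost it without control replicate 2 or Ocoxin replicate 1 (0.118 and 0.128), and SEC61B without control replicate 2 or Ocoxin replicate 2 (0.0992 and 0.166). Without PRAD, HSPA5 (0.662), DNAJC3 (0.468), DNAJB9 (0.567), CRELD2 (0.104), CALR (0.06) and ERN1 (0.0822) lost it. The dilution, the cell line and, for PRAD, the counting run cannot be told apart in this test.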

How the results depend on the processing

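No member changed direction with a call under any alternative. In COAD, 0 members were called, but 2 with DESeq2, 2 with length and GC trends removed and 1 with all 24 libraries in 1 fit, and 0 to 0 with each library left out. In PAAD, 7 became 11 without a filter, 14 with the trends removed, 11 in 1 fit and 4 at a threshold of 0.01, and 4 to 11 with a library left out (4 without control replicate 2 or Ocoxin replicate 1, 11 without control replicate 3). In PRAD, 3 became 0 at 0.01, and 0 to 3 with a library left out (0 without any 1 control replicate or Ocoxin replicate 2, 1 without Ocoxin replicate 1). DESeq2 and the fit of all 24 libraries each called 2 members in PRAD, of which only 1 was among the 3. The PRAD median of 0.06 became -0.00959 with the trends removed, and the COAD median of -0.05 became 0.00089 without Ocoxin replicate 1. In TNBC, 18 stayed within 13 to 24 (15 to 22 with a library left out). The causes were not tested.

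With the replicate block, 4 members were called in COAD, where the pairing is uncertain, 18 in PAAD, 7 in PRAD and 23 in TNBC, against 10.9%, 23.1%, 8.5% and 33.9% of all genes. With the block and the trends removed together the first 3 were 7, 16 and 11 (4 of the 11 lower), against 14.5%, 19.6% and 31.9% of all genes. With the trends alone removed, PRAD had 3, against 14.5%. For the differences between lines the block gave 19 in place of 12 among the 4 lines, 14 in place of 7 for TNBC and COAD, 8 in place of 2 for TNBC and PAAD and 11 in place of 5 for PRAD and TNBC. At 0.01 these were 5, 4, 1 and 2, and with each number left out 3 to 13, 3 to 8, 0 to 2 and 2 to 6, lowest without control replicate 2. Without PRAD, 6 members differed among the lines, and TNBC and PAAD differed in 1 with DESeq2 size factors or no filter. Counts of DERL3, the lowest member, limit its precision.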
